A study of Arabidopsis thaliana with 36 samples.

Results

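The nuclear genes for the small subunit of Rubisco and the gene for Rubisco activase were followed in whole rosettes of Arabidopsis thaliana before cold, in the cold and after it. The members were chosen by identifier: RBCS1A (AT1G67090), RBCS1B (AT5G38430), RBCS2B (AT5G38420), RBCS3B (AT5G38410) and RCA (AT2G39730), 5 of the 34262 genes in the tables. All 5 passed the filter on low counts in 36 libraries, and their counts were compared across 12 groups of 3 libraries. The lines were mbf1c and jub1, called plant lines in the labels, with no allele given, and Col0, the Columbia wild type. The line names refer to MBF1C, a transcriptional coactivator, and JUB1, a NAC transcription factor. Soil-grown rosettes were 28 days old at the start and were collected before treatment (NonA), after 3 days at 4 °C under 90 µE light with 16 h days (ACC), and 2 days (Deacc2) or 4 days (Deacc4) after return to 20 °C days under 200 µE light. NonA plants had been in those warm long days as well, so temperature, light intensity and age changed together between NonA and ACC and cannot be told apart. Deacc2 and Deacc4 rosettes differed from NonA rosettes in age as well as in their cold history. Plants stood 10 to a pot, whether a library pooled several rosettes is not given in the labels, and neither is the time of day at harvest. The series calls the 3 libraries of a group biological replicates, and p-values here measure the spread between these samples.

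Rubisco fixes CO2 in the Calvin cycle. Its large subunit is encoded in the chloroplast, while the small subunits come from a nuclear RBCS family, are imported into the chloroplast and are assembled with the large subunits by chaperonins and dedicated assembly factors. Rubisco activase, encoded by RCA, uses ATP to release inhibitory sugar phosphates from the active sites. RBCS transcription depends on light, chloroplast signals and sugars, and RBCS transcripts are among the most abundant in leaves.

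All 5 genes lie on the minus strand of the TAIR10.1 annotation. RBCS1A stands alone at chr1:25048158-25049667, with 1268 exonic bases. RBCS1B, RBCS2B and RBCS3B form a tandem cluster on chromosome 5, at chr5:15383167-15385320 (1894 exonic bases), chr5:15380907-15382071 (935) and chr5:15376988-15378642 (1410). RCA is at chr2:16570746-16573692, with 2101 exonic bases, 3 of which lie opposite AT2G39725. RBCS1A shared 90.4% to 90.6% of aligned coding bases with the tandem genes, and the tandem genes shared 96.7% to 97.3% with each other. The window of 60 coding bases from base 20 to base 79 of the coding sequence lies in 1 exon of each gene. Among windows of that length without gaps, it was picked for holding the most columns in which the genes differ. It is thus a best case for assigning a read within the family. Capitals mark the 16 columns in which at least 1 gene differs from another, and each sequence is written 5′ to 3′ along the minus strand, from chr1:25049171-25049230, chr5:15385077-15385136, chr5:15381900-15381959 and chr5:15378228-15378287 of TAIR10.1.
RBCS1A: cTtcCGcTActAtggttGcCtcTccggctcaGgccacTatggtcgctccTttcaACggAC
RBCS1B: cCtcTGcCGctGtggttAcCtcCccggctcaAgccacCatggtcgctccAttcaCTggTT
RBCS2B: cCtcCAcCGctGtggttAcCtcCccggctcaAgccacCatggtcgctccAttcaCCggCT
RBCS3B: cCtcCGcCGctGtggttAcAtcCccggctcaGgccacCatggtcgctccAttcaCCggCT
More of the capitals set RBCS1A apart from all 3 tandem genes than separate the tandem genes from each other. The longest run of coding bases shared exactly by RBCS1B and RBCS3B was 233. Over whole exonic sequences, 1.48% of the 50-base stretches of RBCS1A also occurred in another place in the transcribed genes, against 13.9% for RBCS1B, 21.4% for RBCS2B, 15.4% for RBCS3B and 0% for RCA. At 100 bases the shares were 0% for RBCS1A, RBCS2B and RCA, 7.41% for RBCS1B and 9.99% for RBCS3B. The split of reads among RBCS1B, RBCS2B and RBCS3B is therefore less certain than that between RBCS1A and their sum. Multimapping reads were held outside the gene counts, so the tandem sum may also be undercounted relative to RBCS1A. By how much is not known, since the read length is not given.

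The 500 bases before the start codon were read on both strands for 4 short motifs known from RBCS or cold-responsive promoters. The G-box CACGTG, a core bound by bZIP and bHLH factors, occurred in RBCS1A, RBCS2B, RBCS3B and RCA and not in RBCS1B. It was present in 9.34% of the same windows of 27443 genes. The I-box GATAAG, a motif of GATA factors first described in RBCS promoters, occurred 2 times in RBCS1A, 2 times in RBCS1B, 3 times in RBCS2B, 3 times in RBCS3B and 1 time in RCA, and in 23.5% of all windows. Neither the CRT/DRE core CCGAC (23.4% of windows), bound by CBF factors, nor the evening element AAAATATCT (4.02%), bound by clock factors, was found in any of the 5. The G-boxes are shown because they lie at like distances in 4 genes that differed widely in their response to cold, and the RBCS1B I-box because that gene has no G-box. Capitals mark the motif in 30 bases of the minus strand, at chr1:25049491-25049520 for RBCS1A, chr5:15382177-15382206 for RBCS2B, chr5:15378506-15378535 for RBCS3B, chr2:16573579-16573608 for RCA and chr5:15385303-15385332 for RBCS1B.
RBCS1A: ggaattatcttcCACGTGgcattattccag
RBCS2B: ggagttttctgcCACGTGatcttatcctag
RBCS3B: ggagttttctgcCACGTGgccttatcctag
RCA: ataaacatattcCACGTGgaccaatcaaaa
RBCS1B: aaagaaagataaGATAAGggtgtcaacacc
The G-boxes lay 259, 216, 217 and 251 bases before the start codon of RBCS1A, RBCS2B, RBCS3B and RCA, and the I-box 165 bases before that of RBCS1B. Distances were taken to the most upstream annotated start codon, and the RBCS1A, RBCS3B and RCA windows fall inside the annotated gene. A match of letters does not show that a factor binds there.

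The libraries held 14407060 to 63178347 counts in genes. The MBF1C transcript fell in mbf1c libraries relative to Col0 (log2 change −1.73 ± 0.18 SE, edgeR adjusted p = 1.2e-06) and the JUB1 transcript fell in jub1 libraries (−2.29 ± 0.33, adjusted p = 0.000779), averaged over conditions. Levels below are CPM, the counts of a gene scaled to a fixed total of gene counts per library, and fold changes are edgeR log2 changes after TMM scaling, with adjusted p-values over 20679 genes. Scaling by total gene counts in place of TMM moved the median log2 change of all genes at ACC against NonA by 0.42, and the share of higher genes among those called was 68.2%, against 49.8% with TMM. The like shares were 35.5% against 50.2% at Deacc2 against ACC, 35.2% against 49.2% at Deacc4 against ACC, 61.1% against 48.9% at Deacc2 against NonA and 59.0% against 48.0% at Deacc4 against NonA. Shares within the RBCS family and the ratio of RCA to RBCS do not depend on this scaling. As markers of cell types, 5 mesophyll genes were fixed for this report: CA1, LHCB4.1, LHCB5, PSBO2 and PSAD1. They summed to 6520 ± 2366 CPM (SD, n = 9, 3433 to 10380) in ACC and 25132 ± 1777 CPM (22512 to 27965) in NonA rosettes, with no overlap. This sum cannot tell fewer mesophyll cells from less RNA of these genes per cell. The 2 epidermis genes summed to 380 ± 85.1 CPM in ACC and 252 ± 78.3 CPM in NonA rosettes. The 2 phloem genes summed to 156 ± 8.95 and 82.3 ± 19.2 CPM in ACC and NonA rosettes, and the 2 guard cell genes to 37.5 ± 9.18 and 20.3 ± 7.44 CPM. The 4 root genes never summed to more than 0.328 CPM and the 4 flower genes never to more than 3.20 CPM, and the 3 meristem genes reached 9.90 CPM at most.

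The 4 RBCS genes together took 1.82% to 6.08% of all gene counts in a rosette library. They averaged 5.14% ± 0.791 in NonA, 2.65% ± 0.726 in ACC, 4.14% ± 0.884 in Deacc2 and 3.74% ± 0.659 in Deacc4 rosettes (SD, n = 9 each). Levels of different genes can be compared only per length. Per kilobase of exon, the NonA level was 28616 CPM for RBCS1A, 6746 CPM for RBCS3B, 3303 CPM for RBCS2B, 1305 CPM for RBCS1B and 1229 CPM for RCA. RBCS1B and RCA, with SDs of 290 and 471 CPM per kilobase, did not differ beyond their spread there. RBCS1A stood first in all 4 conditions. In ACC rosettes the order below it was RCA at 1305, RBCS1B at 902, RBCS3B at 746 and RBCS2B at 370 CPM per kilobase, with RBCS1B and RBCS3B within their SDs of 194 and 187. In Deacc2 rosettes it was RBCS3B at 5134, RBCS2B at 2587, RCA at 2378 and RBCS1B at 706 CPM per kilobase, and in Deacc4 rosettes RBCS3B at 4523, RBCS2B at 2554, RCA at 1935 and RBCS1B at 817. RBCS3B and RBCS2B, next below RBCS1A before cold, thus had the lowest means of the 5 in the cold. RBCS2B and RCA did not differ beyond their spread at Deacc2, with SDs of 494 and 1215 CPM per kilobase, and in Col0 RCA averaged 2362 and RBCS2B 2226. At Deacc4 their SDs were 531 and 749, and their ranges overlapped.

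Whether cold acclimation changed the level of these genes was asked first. All 4 small subunit genes fell in the cold, with TMM scaling RBCS2B and RBCS3B about 12-fold and RBCS1A and RBCS1B about 2-fold, while RCA was not called. The 4 lower calls among 5 members stand beside 35.3% of all tested genes called lower, 35.1% called higher and 70.4% called in either direction.

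The coding sequences of RBCS2B and RBCS3B shared 96.9% of aligned bases, and RBCS1B was as close, at 97.3% with RBCS2B and 96.7% with RBCS3B. RBCS2B had 223, 424 and 256 CPM in mbf1c, 476, 363 and 366 CPM in jub1 and 304, 344 and 360 CPM in Col0 rosettes at ACC. At NonA it had 3334, 3543 and 2760 CPM in mbf1c, 3445, 2802 and 3399 CPM in jub1 and 2762, 2595 and 3150 CPM in Col0. Every ACC library lay far below every NonA library, and the lowest ACC library of all was an mbf1c one. The change was −3.63 ± 0.19 (log2, SE; 12.4-fold lower, edgeR adjusted p = 1.3e-14). RBCS3B had 713, 1077 and 1200 CPM in mbf1c, 1070, 996 and 1491 CPM in jub1 and 762, 817 and 1335 CPM in Col0 rosettes at ACC. At NonA it had 9043, 11560 and 10293 CPM in mbf1c, 9886, 7434 and 11706 CPM in jub1 and 7076, 8044 and 10567 CPM in Col0. The groups did not overlap, replicate 3 was the highest ACC library of each line, and the change was −3.64 ± 0.24 (12.5-fold lower, adjusted p = 6.02e-13).

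RBCS1A, the most abundant small subunit transcript, had 16090, 19496 and 27752 CPM in mbf1c, 26196, 19211 and 35330 CPM in jub1 and 19586, 17103 and 30114 CPM in Col0 rosettes at ACC. At NonA it had 24765, 43205 and 36975 CPM in mbf1c, 41010, 32244 and 42334 CPM in jub1 and 32889, 32627 and 40516 CPM in Col0. The ranges overlapped, since replicate 3 of ACC was high in every line and mbf1c NonA replicate 1 was low. RBCS1A fell, with a log2 change of −1.10 ± 0.26 (2.14-fold lower, adjusted p = 0.000574). After a correction for each library's trend with exonic length it was −0.67 (adjusted p = 0.0153), and with scaling by total gene counts −0.64 (adjusted p = 0.00238). That trend had a slope of 0.986 ± 0.157 in ACC and 0.383 ± 0.289 in NonA libraries (SD, n = 9 each), and its part in the change was not tested.

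RBCS1B ranged over 1166 to 2332 CPM (median 1719) in ACC and 1504 to 3361 CPM (median 2507) in NonA rosettes, and the ranges overlapped. It fell by 0.98 (SE 0.22, adjusted p = 0.000359). The RBCS sum ranged over 18192 to 39519 CPM (median 22717) in ACC and 40103 to 60799 CPM (median 52534) in NonA rosettes, with no overlap, and fell by 1.42 (SE 0.25, 2.67-fold lower, adjusted p = 1.39e-05). With total gene counts the change of the sum was smaller, at −0.96 (edgeR adjusted p = 7.13e-06). RCA had 2741 ± 405 CPM in ACC and 2581 ± 989 CPM in NonA rosettes, with overlapping ranges, and a change of −0.30 ± 0.29 (adjusted p = 0.350). With total gene counts its change was 0.08 (adjusted p = 0.802), so its sign depended on the scaling. Each of the 4 RBCS calls was kept when any 1 of the 36 libraries was left out. Fewer cells of a type and less RNA per cell cannot be told apart in whole rosettes, and the part of the lower mesophyll marker sum in these changes was not tested.

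**Figure D1:**
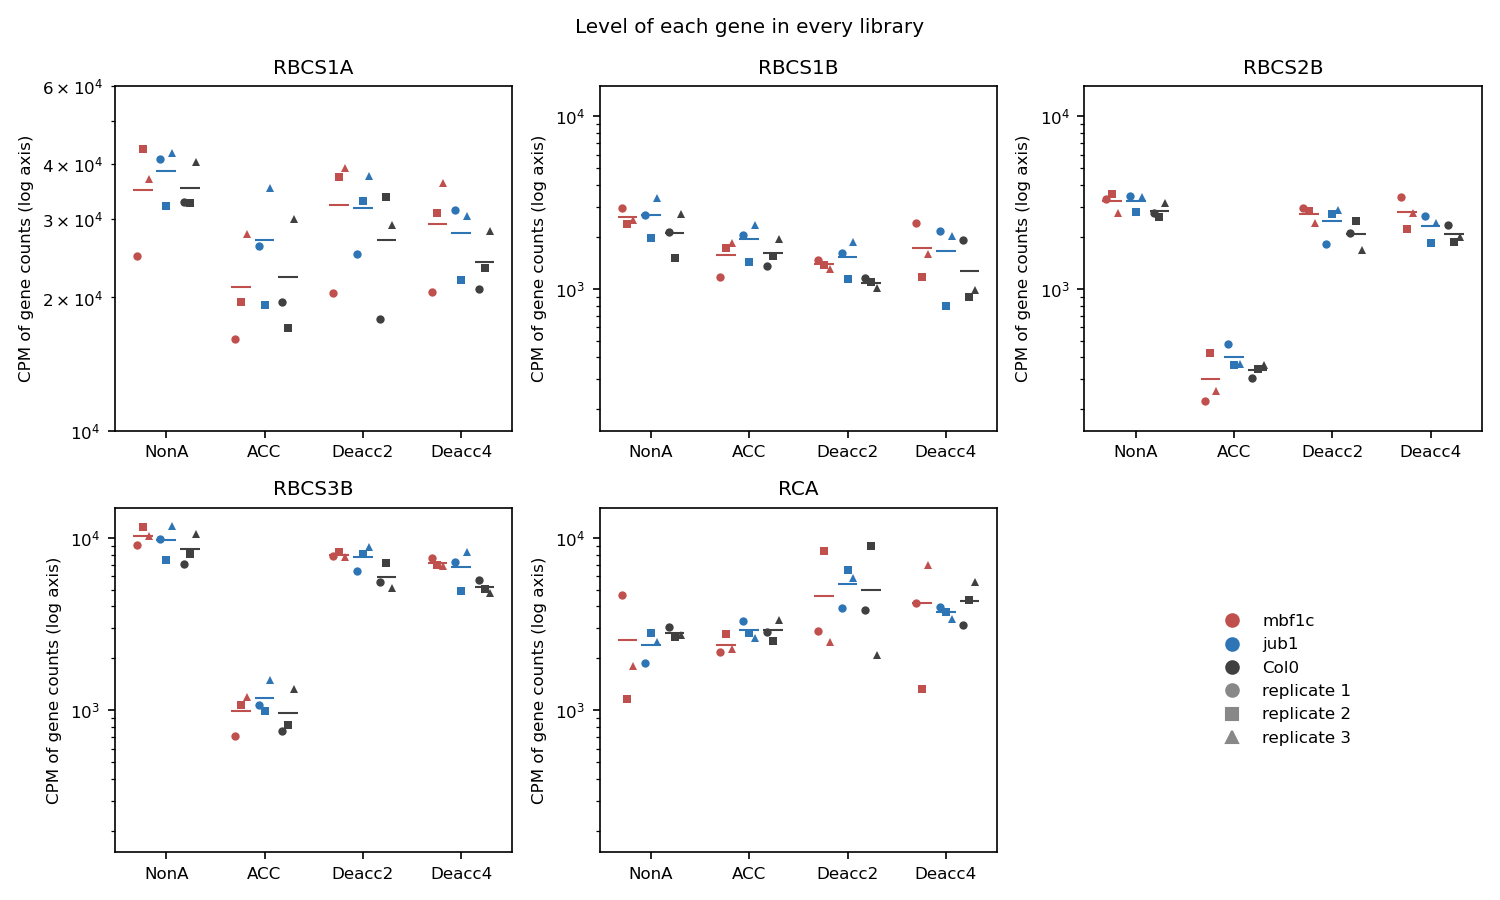
Levels of each RBCS gene and RCA in CPM (log axis) by condition, 1 dot per library, coloured by line and shaped by replicate number, with the group mean as a horizontal line. RBCS2B and RBCS3B sit near 346 and 1051 CPM in ACC and near 3088 and 9512 CPM in NonA rosettes, while RCA spans 2106 to 8967 CPM at Deacc2 and 1321 to 6994 CPM at Deacc4.

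Within single lines the same comparison rested on 3 libraries a side. In mbf1c, RBCS1A (−1.30, edgeR adjusted p = 0.0216), RBCS1B (−1.23, 0.0119), RBCS2B (−3.95) and RBCS3B (−3.92) were called lower, beside 24.8% of all genes. In jub1, RBCS1B (−0.96, adjusted p = 0.0446), RBCS2B (−3.49) and RBCS3B (−3.52) were called, beside 23.1% of genes, and RBCS1A was −0.99 (adjusted p = 0.0755). In Col0, RBCS2B (−3.44) and RBCS3B (−3.49) were called, beside 20.7% of genes, and RBCS1A was −1.01 (adjusted p = 0.0750) and RBCS1B −0.75 (adjusted p = 0.118). The sum was called in each line, at −1.65 in mbf1c, −1.30 in jub1 and −1.30 in Col0. The RBCS2B and RBCS3B calls held in each line under all 49 alternatives run. The RBCS1A call in mbf1c was lost under 9 of them, and RBCS1A was called under 4 in jub1 and 3 in Col0, DESeq2 among them (adjusted p = 0.0431 and 0.0397). The call of RBCS1B was lost under 3 in mbf1c and 24 in jub1, and that of the sum under 2 in mbf1c, 9 in jub1 and 6 in Col0. Differences between lines in the size of these changes are given with the mutants.

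The make-up of the RBCS family changed with the cold. Each gene's share was its counts per kilobase of exon over those of all 4 genes in the same library, tested by exact two-sided permutation within lines and adjusted over 40 tests. RBCS1A made up 90.0% ± 1.26 in ACC and 71.4% ± 3.37 in NonA rosettes (SD, n = 9 each). Its ACC libraries spanned 87.9% to 91.3% and its NonA libraries 62.9% to 74.0%, a difference of 18.5 points with no overlap overall or within any line (exact permutation p = 0.00025, the smallest possible, adjusted p = 0.001). RBCS3B made up 3.67% ± 0.385 in ACC and 16.9% ± 1.84 in NonA rosettes, and RBCS2B 1.89% ± 0.520 in ACC and 8.37% ± 1.24 in NonA rosettes. Both shares fell without overlap, with differences of −13.2 and −6.48 points (exact permutation, adjusted p = 0.001 each). RBCS1B, although its level fell, had a larger share in ACC, 4.48% ± 0.520, than in NonA rosettes, 3.29% ± 0.774, a difference of 1.18 points (exact permutation, adjusted p = 0.0108). That call was lost without replicate 2 (0.594 points, adjusted p = 0.301) or replicate 3 (1.49 points, adjusted p = 0.0570). The 4 shares add to 100% and are not independent. Shares of raw counts gave RBCS1A 88.1% in ACC and 70.5% in NonA rosettes. Within 1 line an exact test of 3 against 3 libraries cannot go below p = 0.1.

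**Figure D2:**
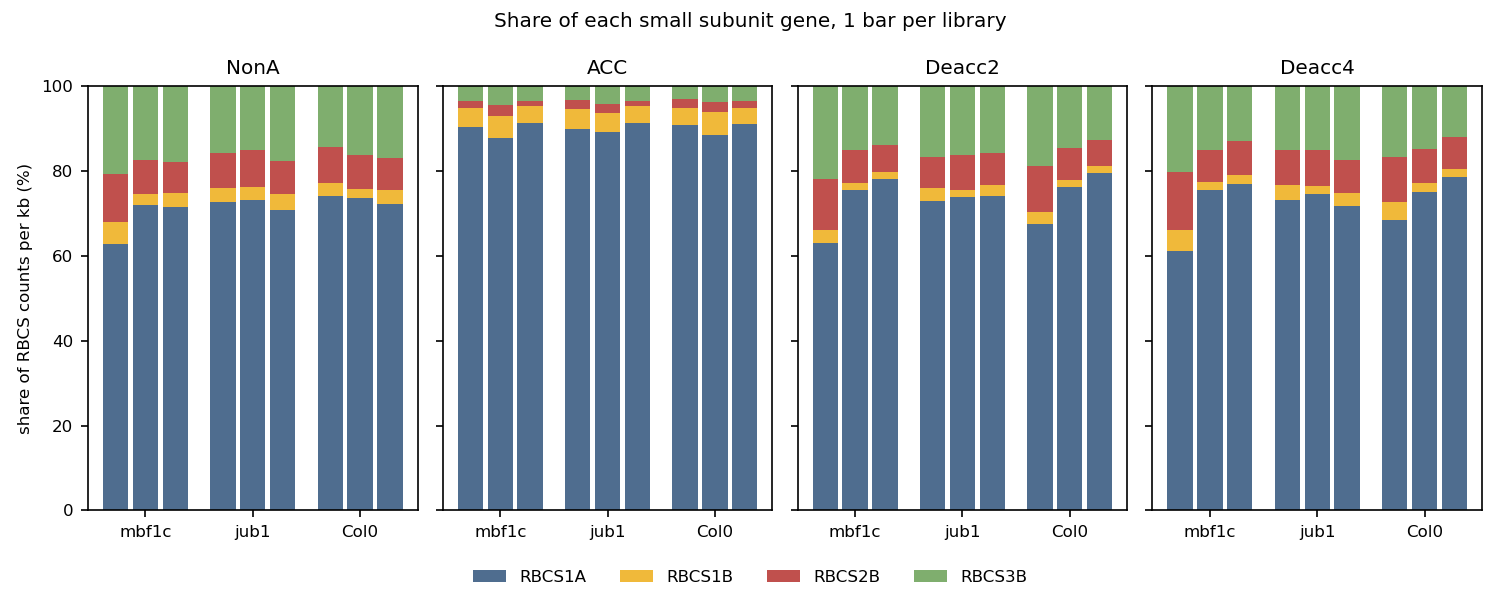
Share of each RBCS gene in the family per kilobase of exon (percent, stacked to 100), 1 bar per library in 4 panels by condition. RBCS1A takes 87.9% to 91.3% of every ACC bar and 61.2% to 79.4% of the bars in the other conditions.

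Deacclimation was compared with the cold next. RBCS2B and RBCS3B rose about 8-fold within 2 days, RBCS1B was not called, and RCA rose, although its rise was not called without replicate 2 (0.54, edgeR adjusted p = 0.0704). The mesophyll marker sum was 25577 CPM in Deacc2 and 6520 CPM in ACC rosettes, the phloem sum 101 and 156 CPM, the guard cell sum 20.2 and 37.5 CPM and the epidermis sum 276 and 380 CPM, and their part in these changes was not tested. Called higher at Deacc2 against ACC were RBCS1A, RBCS2B, RBCS3B and RCA, 4 of 5 members, beside 32.5% of all genes called higher and 32.3% called lower. RBCS2B ranged over 1669 to 2926 CPM (median 2471) in Deacc2 and 223 to 476 CPM (median 360) in ACC rosettes, and RBCS3B over 5150 to 8879 CPM (median 7738) in Deacc2 and 713 to 1491 CPM (median 1070) in ACC rosettes. Neither gene overlapped between the conditions, and the rises were 3.12 ± 0.18 (edgeR adjusted p = 4.73e-14) and 3.07 ± 0.23 (adjusted p = 5.18e-12). RBCS1A ranged over 17923 to 39264 CPM (median 33035) in Deacc2 and 16090 to 35330 CPM (median 19586) in ACC rosettes and rose by 0.69 ± 0.26 (adjusted p = 0.0223). Its ranges overlapped nearly whole, and the call was lost without any 1 of 6 libraries, with adjusted p between 0.0504 and 0.0549. These were mbf1c ACC replicate 1, jub1 ACC replicate 2, Col0 ACC replicate 2, mbf1c Deacc2 replicate 3, jub1 Deacc2 replicate 3 and Col0 Deacc2 replicate 2. Without replicate 2 of all groups it was 0.39 (adjusted p = 0.348), and with total gene counts 0.38 (adjusted p = 0.0620). In mbf1c alone, where the replicate numbers paired the libraries, the RBCS1A change was 0.98 (adjusted p = 0.0852), and 0.96 with the replicate block (adjusted p = 0.0247). RBCS1B ranged over 1010 to 1876 CPM (median 1305) in Deacc2 rosettes and changed by −0.07 (adjusted p = 0.783). The RBCS sum rose by 0.95 ± 0.25 (adjusted p = 0.00133), and was 0.67 without replicate 2 (adjusted p = 0.0832). With total gene counts the sum rose by 0.64 (edgeR adjusted p = 0.000867).

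At Deacc4 against ACC, RBCS2B (3.10, edgeR adjusted p = 5.92e-14), RBCS3B (2.90, adjusted p = 1.47e-11) and RCA (0.87, adjusted p = 0.00893) were called higher, 3 of 5 members, beside 33.3% of all genes called higher and 34.3% called lower. RBCS1A was 0.52 (adjusted p = 0.0763) and RBCS1B 0.14 (adjusted p = 0.576), the last of which was −0.15 with total gene counts. The RBCS sum rose by 0.80 (adjusted p = 0.00501), and was 0.69 without replicate 2 (adjusted p = 0.0767). With total gene counts the sum rose by 0.50 (edgeR adjusted p = 0.00702). Between Deacc4 and Deacc2 none of the 5 members was called by edgeR, beside 0.0435% of all genes. None had an unadjusted p under 0.05, and DESeq2 called none.

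Within single lines RBCS2B and RBCS3B were again called at Deacc2 against ACC. Their log2 changes were 3.50 and 3.33 in mbf1c, 2.93 and 3.01 in jub1 and 2.91 and 2.88 in Col0, beside 21.3%, 18.9% and 21.8% of genes called higher. At Deacc4 against ACC they were 3.58 and 3.21 in mbf1c, 2.85 and 2.86 in jub1 and 2.86 and 2.63 in Col0, beside 22.9%, 21.1% and 21.6% of genes. RBCS1A and RBCS1B were called in no single line in either comparison, although RBCS1A in mbf1c was called under 5 of 49 alternatives at Deacc2 and 1 of 49 at Deacc4 against ACC.

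Shares moved back within 2 days. RBCS1A made up 73.4% ± 5.18 in Deacc2 and 72.8% ± 5.25 in Deacc4 rosettes, with differences from ACC of −16.6 and −17.2 points. RBCS3B made up 16.2% ± 2.78 and 15.5% ± 2.45, and RBCS2B 8.21% ± 1.99 and 8.85% ± 2.03 at Deacc2 and Deacc4, all above ACC (exact permutation, adjusted p = 0.001 for each of these 6 differences). RBCS1B made up 2.26% ± 0.625 in Deacc2 rosettes, a difference of −2.22 points from ACC (exact permutation, adjusted p = 0.001). At Deacc4 its share of 2.81% ± 1.12 differed from ACC by −1.67 points (exact permutation, adjusted p = 0.0108), and by −0.945 points without replicate 2 (adjusted p = 0.301).

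Set against rosettes that had never been cold, RBCS1B, RBCS2B and RBCS3B were called lower at Deacc2, RBCS1A was not called, and RCA was called higher. The mean CPM of Deacc2 rosettes was 83.8% of the NonA mean for RBCS1A, 54.1% for RBCS1B, 78.3% for RBCS2B, 76.1% for RBCS3B and 194% for RCA. At Deacc4 it was 74.8%, 62.6%, 77.3%, 67.0% and 157% in the same order. At Deacc2 against NonA, 3 of 5 members were called lower, beside 20.8% of genes, and 1 higher, beside 19.9%. RBCS1B fell most: it ranged over 1010 to 1876 CPM in Deacc2 and 1504 to 3361 CPM in NonA rosettes, a change of −1.05 ± 0.22 (edgeR adjusted p = 0.000833). RBCS2B fell by 0.51 (adjusted p = 0.0172) and RBCS3B by 0.57 (adjusted p = 0.0337), while RBCS1A was −0.41 (adjusted p = 0.212).

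The smaller of these calls rested on single libraries. RBCS2B lost its call without jub1 Deacc2 replicate 1, jub1 NonA replicate 1 or 3 or mbf1c NonA replicate 2, with adjusted p between 0.0591 and 0.0788. RBCS3B lost its call without any 1 of 10 libraries: mbf1c Deacc2 replicate 1, jub1 Deacc2 replicates 1 and 2, Col0 Deacc2 replicates 1 and 3, mbf1c NonA replicates 2 and 3, jub1 NonA replicates 1 and 3, and Col0 NonA replicate 3, with adjusted p between 0.0515 and 0.127. With the correction for the length trend, whose mean slope was 0.790 at Deacc2 and 0.383 at NonA, RBCS2B was 0.00 (adjusted p = 0.989) and RBCS3B −0.36 (adjusted p = 0.147). Without the filter on low counts RBCS2B was −0.44 (adjusted p = 0.0530) and RBCS3B −0.50 (adjusted p = 0.0761).

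At Deacc4 against NonA, RBCS1B (−0.83, edgeR adjusted p = 0.00460), RBCS2B (−0.53, adjusted p = 0.0140) and RBCS3B (−0.74, adjusted p = 0.00751) were called lower, 3 of 5 members, beside 21% of genes called lower and 19.4% called higher. RBCS1B was −0.63 without replicate 3 (adjusted p = 0.123). RBCS3B was −0.72 without replicate 2 (adjusted p = 0.0522) and −0.60 without replicate 3 (adjusted p = 0.0903). RBCS2B lost its call without jub1 Deacc4 replicate 2, jub1 NonA replicate 1 or 3 or mbf1c NonA replicate 2, with adjusted p between 0.0549 and 0.0725, and was −0.14 with the length correction (adjusted p = 0.559). RBCS1A was −0.57 (adjusted p = 0.0782). The sum was −0.61 (adjusted p = 0.0457) and lost its call without any 1 of 27 of the 36 libraries. In single lines edgeR called no member at Deacc2 or Deacc4 against NonA, where 0.058% and 2.63% of genes were called in mbf1c, 6.05% and 0.595% in jub1 and 0.00484% and 6.11% in Col0. Of those 30 member tests 8 had an unadjusted p under 0.05, and DESeq2 called none (smallest adjusted p = 0.0581). RBCS1B had changes of −1.09 in mbf1c, −1.01 in jub1 and −1.06 in Col0 at Deacc2 against NonA.

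Of the family shares only that of RBCS1B was called against NonA, at Deacc2, by −1.03 points (exact permutation, adjusted p = 0.0186), and it was −0.851 points without replicate 3 (adjusted p = 0.267). The RBCS1A share was called higher than in NonA rosettes when replicate 1 was left out, by 3.94 points at Deacc2 (exact permutation, adjusted p = 0.0247) and 3.16 points at Deacc4 (adjusted p = 0.0390). In mbf1c replicate 1 that share was 62.9% at NonA, 62.9% at Deacc2 and 61.2% at Deacc4, the lowest library of each of these conditions.

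**Figure D3:**
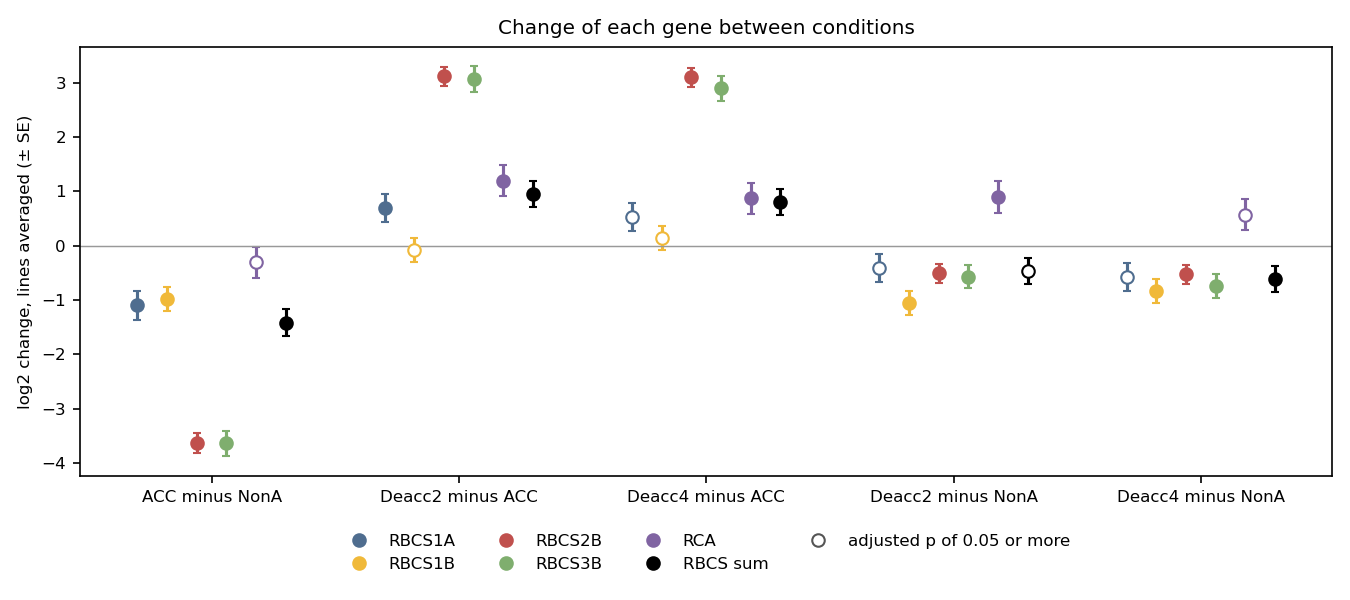
Log2 changes with SE bars for each RBCS gene, the RBCS sum and RCA in the comparisons of conditions with lines averaged, where open symbols have an adjusted p of 0.05 or more. RBCS2B and RBCS3B lie at −3.63 and −3.64 for ACC minus NonA and at 3.12 and 3.07 for Deacc2 minus ACC, and RBCS1B lies below 0 against NonA in all 3 later conditions.

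With TMM scaling RCA, unlike the small subunit genes, was not called lower in the cold and was called higher than NonA at Deacc2. It had 4679, 1157 and 1797 CPM in mbf1c, 1884, 2791 and 2490 CPM in jub1 and 3046, 2665 and 2722 CPM in Col0 rosettes at NonA. At ACC it had 2179, 2755 and 2266 CPM in mbf1c, 3298, 2820 and 2614 CPM in jub1 and 2850, 2531 and 3360 CPM in Col0. At Deacc2 it had 2881, 8417 and 2497 CPM in mbf1c, 3926, 6522 and 5841 CPM in jub1 and 3814, 8967 and 2106 CPM in Col0. The ACC libraries were the closest together, and the 3 libraries of replicate 2 were the highest of their lines at Deacc2, at 6522 to 8967 CPM. Those libraries also had the highest slopes with exonic length of their lines at Deacc2: 1.13 in mbf1c, 0.890 in jub1 and 1.19 in Col0. The part of this trend in the spread of RCA was not tested. At Deacc4 RCA had 4187, 1321 and 6994 CPM in mbf1c, 3977, 3734 and 3407 CPM in jub1 and 3107, 4339 and 5520 CPM in Col0. Ranges overlapped in every comparison of conditions.

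RCA rose 2.29-fold at Deacc2 against ACC (edgeR log2 SE 0.29, adjusted p = 0.000698) and 1.86-fold at Deacc2 against NonA (log2 change 0.89 ± 0.29, adjusted p = 0.0150). After the correction for the length trend the log2 changes were 1.25 (edgeR adjusted p = 0.000162) and 0.80 (adjusted p = 0.0208). Without replicate 2 the log2 changes were 0.54 (adjusted p = 0.0704) and 0.17 (adjusted p = 0.657). The second was also lost without Col0 Deacc2 replicate 2 (0.60, adjusted p = 0.0799) or without mbf1c Deacc2 replicate 2 (0.62, adjusted p = 0.0781). The rise of 0.87 at Deacc4 against ACC was 0.65 without replicate 3 (adjusted p = 0.111) and 0.57 with total gene counts (adjusted p = 0.0788). At Deacc4 against NonA RCA was 0.57 (adjusted p = 0.111), and it was called without mbf1c Deacc4 replicate 2 (0.70, adjusted p = 0.0374) or mbf1c NonA replicate 1 (0.77, adjusted p = 0.0351). In single lines at Deacc2 against ACC, RCA was 1.30 in mbf1c (adjusted p = 0.0395), 1.21 in jub1 (adjusted p = 0.0562) and 1.08 in Col0 (adjusted p = 0.0846). The mbf1c call was lost under 18 of 49 alternatives, and RCA was called under 11 of 49 in jub1 and 2 of 49 in Col0.

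The ratio of RCA to the RBCS sum, per kilobase and on the log2 scale, was −5.10 ± 0.75 in NonA, −3.94 ± 0.37 in ACC, −3.91 ± 0.69 in Deacc2 and −4.02 ± 0.70 in Deacc4 rosettes (SD, n = 9 each). It was higher in ACC than in NonA by 1.16 (exact permutation, adjusted p = 0.00455), with ranges of −4.62 to −3.65 in ACC and −6.43 to −3.80 in NonA rosettes that overlapped. It was also higher than in NonA by 1.19 at Deacc2 (exact permutation, adjusted p = 0.0187) and by 1.09 at Deacc4 (adjusted p = 0.0275). Without replicate 2 the first was 0.93 (adjusted p = 0.0855) and the second 0.77 (adjusted p = 0.301). Without replicate 3 the second was 1.42 (adjusted p = 0.0570) and the last 0.85 (adjusted p = 0.312). The ratio at Deacc2 and Deacc4 was not called against ACC. Neither the ratio nor the shares were run with the correction for the length trend, whose mean slope was 0.986 in ACC and 0.383 in NonA libraries. With that correction the edgeR log2 change at ACC against NonA was −0.45 for RCA (adjusted p = 0.133) and −1.04 for the RBCS sum (adjusted p = 0.000199). The part of the length trend in the ratio was not tested. The higher ratio came with a called fall of the RBCS sum in ACC, where RCA was not called, and with a called rise of RCA at Deacc2.

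**Figure D4:**
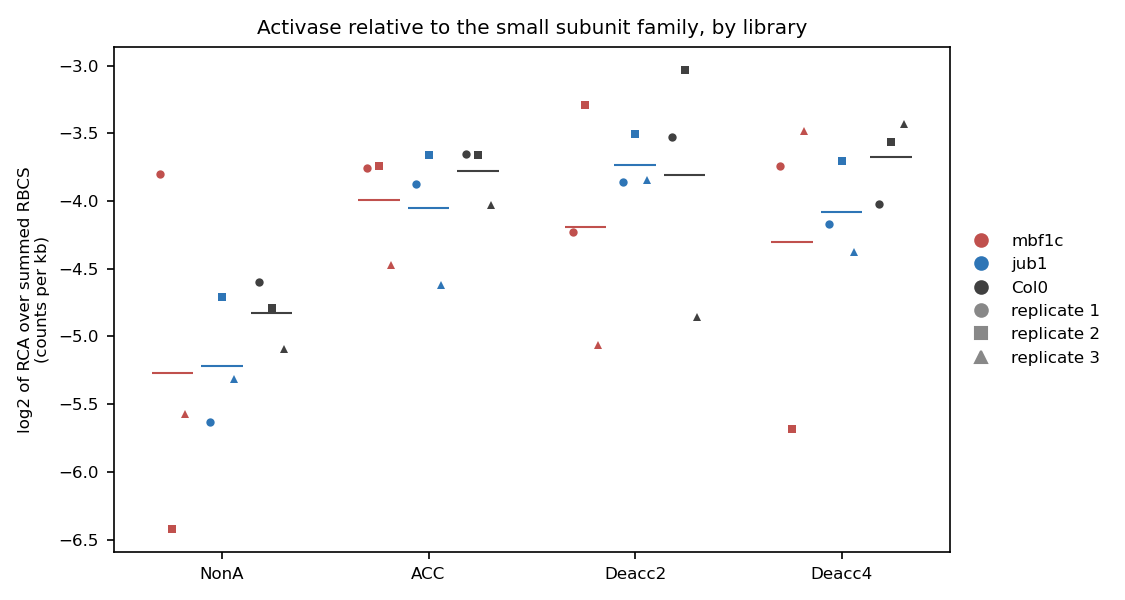
Log2 ratio of RCA to the RBCS sum per kilobase of exon for every library by condition, coloured by line. NonA libraries reach down to −6.43 and average −5.10, while the averages of the other conditions lie between −4.02 and −3.91.

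Whether the mutants differed from Col0 was tested at each condition and over all 4. None of 50 member tests was called by edgeR, with log2 changes of −0.30 to 0.60, 4 tests at an unadjusted p under 0.05 and a smallest adjusted p of 0.502. DESeq2 also called none of the 50, with a smallest adjusted p of 0.311. Over all genes, 0.029% were called for mbf1c against Col0 and 0.0339% for jub1 against Col0, conditions averaged. At single conditions the shares for mbf1c were 0.00967% (NonA), 0.00484% (ACC), 0.0145% (Deacc2) and 0.0193% (Deacc4), and those for jub1 were 0%. The 30 tests of whether a change between conditions differed in a mutant from Col0 gave no call by edgeR or DESeq2, none at an unadjusted p under 0.05, and differences of −0.52 to 0.72 with SEs of 0.41 to 0.70. Over all genes each of these 6 interactions called 0%.

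The exact test within conditions called no family share in mbf1c against Col0, while the replicate block called some. RBCS1A made up 75.5% ± 10.4 in mbf1c and 77.9% ± 8.10 in Col0 libraries over all conditions (SD, n = 12 each), a difference of −2.45 points (exact permutation, adjusted p = 0.462). The replicate numbers paired mbf1c with Col0 at all 4 conditions, and with the replicate block the same difference had an exact adjusted p of 0.0104. That blocked test treats the 12 same-numbered pairs as independent, although they carry only 3 replicate numbers. The RBCS1A share was lower in mbf1c in 10 of the 12 pairs, with a median of −1.14 points and a range of −11.2 to 0.432. RBCS3B made up 13.9% ± 6.65 in mbf1c and 12.3% ± 5.62 in Col0 libraries, 1.58 points more (exact permutation, adjusted p = 0.305, with the replicate block 0.0104) and more in 11 of 12 pairs. RBCS1B had 0.294 points more (exact permutation, adjusted p = 0.672, with the replicate block 0.0479) and more in 9 of 12 pairs. Without replicate 1 the unblocked RBCS1A difference was −0.750 points and that of RBCS3B 0.713 points. At ACC the RBCS1A share averaged 89.8% in mbf1c, 90.0% in jub1 and 90.0% in Col0, and at NonA 68.8% ± 5.17 in mbf1c, 72.3% ± 1.22 in jub1 and 73.2% ± 0.927 in Col0 (SD, n = 3 each). The ratio of RCA to RBCS was lower in mbf1c by 0.42 and in jub1 by 0.25, each in 10 of 12 pairs, and neither was called (exact permutation, adjusted p = 0.383 each).

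Across the 12 group means of log2(CPM + 0.5), RBCS2B and RBCS3B followed each other most closely of the members (Pearson r = 0.996). RBCS1A correlated with RBCS3B at 0.816, with RBCS2B at 0.791 and with RBCS1B at 0.614, while RBCS1B correlated with RBCS2B at 0.136 and with RBCS3B at 0.172. RCA correlated with RBCS1B at −0.768, with RBCS1A at −0.111, with RBCS2B at 0.269 and with RBCS3B at 0.241. These coefficients describe 12 points that share libraries, plants and scaling. Of 13477 genes with at least 5 CPM, those with the pattern most like the RBCS sum were 2-Cys Prx B (r = 0.987), LPA3 (0.981), AT3G19680 (0.981), AT3G10060 (0.979) and PnsL1 (0.978). 2-Cys Prx B, a chloroplast peroxiredoxin, had 497 ± 53.9 CPM in NonA, 230 ± 48.7 in ACC, 377 ± 50.3 in Deacc2 and 345 ± 82.5 CPM in Deacc4 rosettes. Most like RCA were AT3G47000 (r = 0.978), AT3G17940 (0.976), AT2G47440 (0.975), LON2 (0.966) and BDG1 (0.964). LON2, a peroxisomal Lon protease, had 36.4 ± 21.4, 38.9 ± 8.50, 85.6 ± 36.8 and 66.8 ± 24.7 CPM at NonA, ACC, Deacc2 and Deacc4.

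The other genes of carbon fixation moved in both directions in the cold. Of 18 Calvin cycle genes, 11 fell, 3 rose and 4 were not called at ACC against NonA by edgeR, with a median log2 change of −0.48 against −0.00 over all genes, of which 35.3% were called lower and 35.1% higher. CP12-1, which binds Calvin cycle enzymes in the dark, had 606 ± 155 CPM in ACC and 1738 ± 426 CPM in NonA rosettes and fell by 2.00 (adjusted p = 1.31e-07). GAPA-2, a glyceraldehyde-3-phosphate dehydrogenase subunit, had 1133 ± 376 CPM in ACC and 3119 ± 515 CPM in NonA rosettes and fell by 1.91 (adjusted p = 1.24e-07). PGK1, a phosphoglycerate kinase, fell by 1.08 and CP12-3 by 1.00. TKL1, a transketolase, rose by 0.88 (adjusted p = 0.00744), its homologue TKL2 by 0.70 and SBPASE, sedoheptulose-bisphosphatase, by 0.46 (adjusted p = 0.0330). At Deacc2 against ACC 8 rose, 1 fell and 9 were not called, beside 32.5% of all genes higher and 32.3% lower, with GAPA-2 at 1.42, CP12-1 at 1.24 and PGK1 at 0.75. CP12-1 was below NonA at Deacc2 (−0.77, adjusted p = 0.0159). The median of 18 genes with total gene counts was −0.04 at ACC against NonA, with 5 higher and 6 lower. At that scaling the median of all 20679 genes was 0.42, with 9880 higher and 4603 lower.

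Rubisco folding and assembly factors were called in both directions in the cold, with TMM scaling each at near the share of all genes. Of 15 genes, 5 rose, 5 fell and 5 were not called at ACC against NonA by edgeR, with a median of −0.18, beside 35.1% of all genes higher and 35.3% lower. The chaperonin genes CPN60A and Cpn60beta3, which fold the large subunit, rose: CPN60A had 1176 ± 131 CPM in ACC and 345 ± 155 CPM in NonA rosettes (1.39, adjusted p = 4e-06), and Cpn60beta3 41.7 ± 14.7 CPM in ACC and 10.6 ± 5.81 CPM in NonA rosettes (1.60, adjusted p = 1.09e-06). RBCX1, an assembly chaperone of the large subunit, fell by 1.15 (adjusted p = 3.59e-06). AT3G48420 had 73.6 ± 6.85 CPM in ACC and 138 ± 22.2 CPM in NonA rosettes and fell by 1.35 (adjusted p = 2.65e-10). At Deacc2 against ACC 2 rose, 8 fell and 5 were not called, beside 32.5% of all genes higher and 32.3% lower, with CPN60A at −1.64, Cpn60beta3 at −1.72, AT3G48420 at 1.14 and RBCX1 at 1.00. With total gene counts 7 were higher and 2 lower at ACC against NonA, beside 9880 higher and 4603 lower of all 20679 genes.

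Photorespiration genes, which recycle the product of Rubisco's oxygenation reaction, were also called in both directions. Of 14 genes 13 were tested, PGLP1 not among them, and 3 rose, 5 fell and 5 were not called at ACC against NonA by edgeR, with a median of −0.07, beside 35.1% of all genes higher and 35.3% lower. GLDP2 and GLDP1, P proteins of the glycine decarboxylase, had 738 ± 131 and 2146 ± 555 CPM in ACC and 103 ± 57.1 and 432 ± 380 CPM in NonA rosettes. They rose by 2.49 (adjusted p = 5.02e-08) and 2.01 (adjusted p = 3.12e-05), and GOX1, a glycolate oxidase, rose by 0.71. LrgB, a chloroplast membrane protein, had 302 ± 64.5 CPM in ACC and 717 ± 126 CPM in NonA rosettes and fell by 1.71 (adjusted p = 4e-07). AGT1, a peroxisomal serine-glyoxylate aminotransferase, fell by 1.30, and AT1G80380 by 0.92. GLDP2 fell by 1.16 and GLDP1 by 0.90 at Deacc2 against ACC, where 5 of 13 rose and 2 fell beside 32.5% and 32.3% of all genes, and both stood above NonA at Deacc2, at 1.34 (adjusted p = 0.000975) and 1.11 (adjusted p = 0.0172). With total gene counts 5 were higher and 3 lower at ACC against NonA, beside 9880 higher and 4603 lower of all 20679 genes.

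Regulators known to act on photosynthesis genes moved in both directions in the cold. Of 15 genes, 8 rose, 4 fell and 3 were not called at ACC against NonA by edgeR, with a median of 0.52, beside 35.1% of all genes higher and 35.3% lower. Scaled by total gene counts, 9 were higher and 2 lower, beside 9880 higher and 4603 lower of all 20679 genes (68.2% of calls higher). HY5 and its homologue HYH, bZIP factors of light signalling that bind G-boxes, rose: HYH had 37.5 ± 14.7 CPM in ACC and 2.00 ± 0.864 CPM in NonA rosettes (3.80 ± 0.27, adjusted p = 2.27e-12), and HY5 5.29 to 15.3 CPM in ACC and 2.13 to 3.54 CPM in NonA rosettes (1.65, adjusted p = 2.02e-07). GLK2 and GLK1, activators of chloroplast and photosynthesis genes, fell: GLK2 had 53.3 ± 21.2 CPM in ACC and 251 ± 59.6 CPM in NonA rosettes (−2.70 ± 0.29, adjusted p = 4.77e-09), and GLK1 201 ± 55.4 CPM in ACC and 389 ± 57.2 CPM in NonA rosettes (−1.40, adjusted p = 4.12e-07). CGA1, a GATA factor, had 23.3 ± 10.9 CPM in ACC and 3.09 ± 1.24 CPM in NonA rosettes and rose by 2.47 (adjusted p = 9.24e-09), while its homologue GNC was −0.66 and the blue-light receptor CRY1 −0.63, both called lower with TMM. Under scaling by total gene counts CRY1 was −0.25 and GNC −0.21 and neither was called. At Deacc2 against ACC the changes were −4.25 for HYH, −2.92 for CGA1, −2.25 for HY5, 2.04 for GLK2, 1.46 for GLK1 and 1.39 for CRY1, each opposite in sign to the change into cold, while GNC was −0.02 (adjusted p = 0.916). In the list 4 rose and 5 fell, beside 32.5% and 32.3% of all genes.

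At Deacc2 against NonA the Calvin cycle list had 1 higher and 3 lower of 18, the assembly list 0 higher and 5 lower of 15, photorespiration 4 higher and 0 lower of 13, and the regulators 4 higher and 2 lower of 15. At Deacc4 against NonA these were 0 and 5, 0 and 5, 3 and 3, and 3 and 3 in the same order. HY5 was lower at Deacc2 than at NonA (−0.60, adjusted p = 0.0287 by edgeR). The counts of each list lie beside 19.9% of all genes higher and 20.8% lower at Deacc2 against NonA. At Deacc4 against NonA they lie beside 19.4% of all genes higher and 21% lower.

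**Figure D5:**
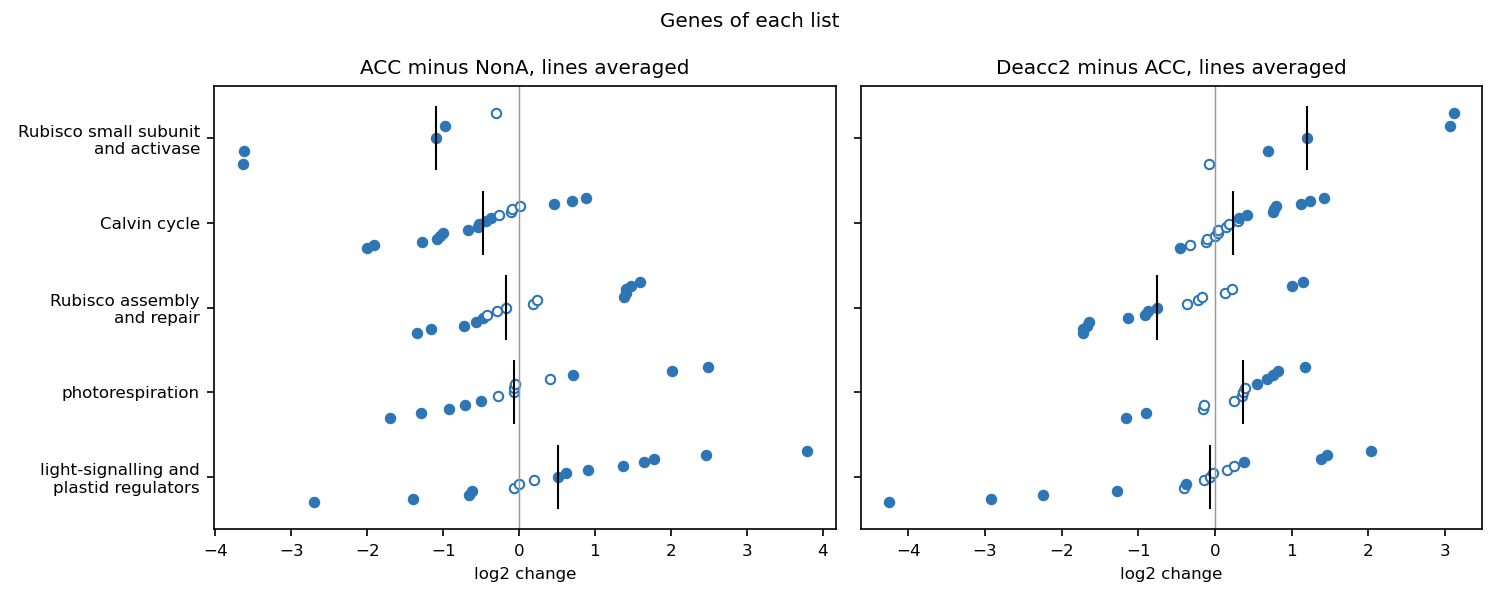
Log2 changes of the 5 members and of the 4 gene lists for ACC minus NonA and for Deacc2 minus ACC, 1 dot per gene, filled where called, with the list median as a black line. At ACC against NonA the regulators spread from −2.70 to 3.80, and RBCS2B and RBCS3B lie below every Calvin cycle gene.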

How the data were processed

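Total RNA of whole rosettes was sequenced on a BGISEQ-500 instrument, per the labels. Raw counts per gene were deposited by the authors, 1 table per library, made with STAR 2.6.0c on TAIR10, per the submitters' processing notes. DESeq2 is listed there too, with no role. The annotation release and the sequenced read length are not given in the sources used here. The unstranded count column was used, since 45.9% to 60.0% of member counts were on the first strand. Gene counts made up 87.2% to 93.0% of reads, multimapping reads 2.54% to 5.20% and ambiguous reads 3.13% to 5.86%, the last 2 held outside the genes in 4 lines of each table. Multimapping reads averaged 3.35% in ACC and 4.63% in NonA libraries, and ambiguous reads 3.45% and 5.12%. No 2 libraries of a group were copies (smallest chi-square per degree of freedom 16.9).

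edgeR 4.0.16 (R 4.3.3) with filterByExpr kept 20679 of 34262 genes. A quasi-likelihood model with 12 group terms and TMM scaling (common dispersion 0.1056) was tested in 40 contrasts, with Benjamini-Hochberg adjustment over all genes at 0.05, and was tested on simulated data. TMM factors ran from 0.720 to 1.31. A gene is called where its adjusted p is under 0.05. Adjusted p-values come from edgeR unless another test is named. Shares and ratios were divided by exonic length from TAIR10.1 and tested by exact permutation within lines or conditions. Sequences and positions are RefSeq's TAIR10.1, aligned with mafft 7.526. Named genes were the members, the 4 list genes with the smallest adjusted p at ACC against NonA and called genes moving against the list's majority, and the 5 genes most like the RBCS sum and RCA. Members and lists were chosen with earlier results of these data known.

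Groups share replicate numbers, which the labels also call Exp1 to Exp3. Same-numbered libraries deviated together, with every correlation over 0.1, in 9 of 26 contrasts: mbf1c against Col0 at all 4 conditions, jub1 against Col0 at Deacc2, the change into cold (ACC minus NonA) and out of it (Deacc2 minus ACC) in mbf1c, and Deacc4 minus NonA and Deacc4 minus Deacc2 in jub1. Alternatives were DESeq2 1.42.0, RLE scaling, total gene counts, no filter, either strand column, only the groups compared, the tandem genes summed, a replicate block, a correction for each library's trend with exonic length (loess, span 0.5), that correction with the block, and leaving out a replicate or a library.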

Additional observations from a re-analysis of the deposited data

How the results depend on the processing

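The fall of all 4 RBCS genes in ACC against NonA rosettes, and the rise of RBCS2B and RBCS3B at Deacc2 and Deacc4 against ACC, kept their direction and call under every alternative run. The size of the fall varied. With total gene counts it was −3.16 for RBCS2B, −3.18 for RBCS3B and −0.53 for RBCS1B. With the length correction it was −2.97, −3.32 and −1.01 in the same order. Where another result changed, the cause was not tested. With total gene counts RCA was 0.084 at ACC against NonA, 0.57 at Deacc4 against ACC and −0.082 for jub1 against Col0. The RBCS sum at Deacc4 against NonA lost its call with no filter (−0.53), the length correction (−0.42), that correction with the replicate block (−0.42), the second strand column (−0.57) and only the groups compared (−0.59). With the length correction RBCS2B at Deacc2 against NonA was 0.0041. RBCS1B at Deacc2 against ACC, summed with its tandem neighbours, was 2.11 (edgeR adjusted p = 9.68e-10), which is mostly their counts. With the first strand column the RBCS2B share at Deacc2 against NonA moved by 0.0241 points.

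With the replicate block the RBCS sum at Deacc2 against NonA was −0.48 (adjusted p = 0.0382), although the numbers paired the libraries of that contrast in no line. The block also called the shares of RBCS1A (−2.45 points), RBCS1B (0.294) and RBCS3B (1.58) in mbf1c against Col0. It called that of RBCS1B at Deacc4 against Deacc2 (0.545), a contrast paired in jub1 only. RBCS1A was further called at ACC against NonA in Col0 (−1.04) and jub1 (−1.03), and at Deacc4 against ACC in mbf1c (0.88) and over lines (0.55). Also called were RBCS1A at Deacc4 against NonA over lines (−0.57), RBCS1B at Deacc2 against NonA in jub1 (−0.99) and the sum at Deacc2 against ACC in Col0 (0.84). Among these further contrasts, the numbers paired the libraries only for jub1 at Deacc4 against NonA. Besides RBCS1A at Deacc2 against ACC in mbf1c, the block changed no other call of a member, the sum or a share.

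DESeq2 also called RBCS1A at Deacc4 against ACC (0.54, adjusted p = 0.0440) and against NonA (−0.58, 0.0466). Counting only changes of at least 2-fold at ACC against NonA left 0 higher and 6 lower Calvin cycle genes, 5 higher and 2 lower assembly genes, 2 higher and 2 lower photorespiration genes, and 5 higher and 2 lower regulators. The share of all genes at that threshold was not computed, so these counts have no background beside them. With total gene counts and no minimum fold, chosen for lists after seeing the data, 5 were higher and 6 lower in the Calvin cycle, 7 and 2 in assembly, 5 and 3 in photorespiration and 9 and 2 among regulators. Of all 20679 tested genes, 9880 were higher and 4603 lower at that scaling.

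Leaving out single libraries or replicates moved RCA between 0.54 and 1.44 at Deacc2 against ACC, 0.65 and 1.00 at Deacc4 against ACC, 0.17 and 1.27 at Deacc2 against NonA, 0.31 and 0.80 at Deacc4 against NonA, −0.79 and 0.45 at Deacc4 against Deacc2, −0.33 and 0.10 for mbf1c against Col0 and −0.079 and 0.23 for jub1 against Col0. The RBCS sum ranged over 0.67 to 1.15 at Deacc2 against ACC, 0.69 to 1.02 at Deacc4 against ACC, −0.69 to −0.46 at Deacc4 against NonA and −0.29 to 0.023 at Deacc4 against Deacc2. In points, the RBCS1A share ranged over 0.0951 to 3.94 at Deacc2 against NonA, −0.0193 to 3.16 at Deacc4 against NonA and −1.98 to 0.682 in jub1 against Col0. That of RBCS1B ranged over 0.594 to 1.49 at ACC against NonA, −2.35 to −0.945 at Deacc4 against ACC, −1.15 to −0.851 at Deacc2 against NonA, −0.878 to −0.236 at Deacc4 against NonA and −0.0532 to 0.307 in jub1 against Col0. That of RBCS2B ranged over −0.566 to 0.144 at Deacc2 against NonA, −0.0696 to 0.933 in mbf1c and −0.501 to 0.387 in jub1 against Col0. That of RBCS3B ranged over −2.22 to 0.612 at Deacc2 against NonA and −0.132 to 1.29 in jub1 against Col0. The log2 ratio of RCA to RBCS ranged over 0.93 to 1.29 at ACC, 0.77 to 1.42 at Deacc2 and 0.85 to 1.28 at Deacc4 against NonA, −0.16 to 0.15 at Deacc2 and −0.42 to 0.20 at Deacc4 against ACC, and −0.57 to 0.36 at Deacc4 against Deacc2. Leave-outs were not run for Deacc4 against Deacc2 within a line.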
